A study of Rattus norvegicus with 9 samples.

Results

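The miR-26 family was followed across the untouched and grafted rat cornea through its mature 5p arms, rno-miR-26a-5p and rno-miR-26b-5p, written below without the species prefix. They were taken by name from the deposited table, where they are 2 of 765 listed mature miRNAs, and both were abundant enough to test. Small RNA was sequenced from total RNA of 9 cornea samples, 3 labelled normal, 3 isograft and 3 allograft, all from rats labelled Wistar and 6 weeks of age. In an isograft, by the meaning of the term, donor and host are genetically matched, and in an allograft they differ, but no donor strain is stated, and Wistar is the strain label of the allografts too. The labels also leave out the time after surgery and the state of the grafts. Each library is called by its group followed by its title number (12, 34 or 56). No label says that the 3 samples of a group are separate animals, so the p-values cover the spread among these samples alone, which may be technical.

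miRNAs are short RNAs that guide Argonaute proteins to messenger RNAs, mainly through pairing of the seed, the bases near the 5′ end, and so lower the output of those messages. The miR-26 family is found in most differentiated tissues, is repressed by the growth-promoting factor Myc, and is known for restraining cell division and for lowering Ezh2, the methyltransferase of the Polycomb repressive complex. Its genes lie within genes of small C-terminal domain phosphatases, which are known to be expressed along with them.

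The mature sequences from RefSeq (build GRCr8) are shown because the members differ in few bases, which bears on how reads can be told apart. Capitals mark the seed, bases 2 to 8 from the 5′ end.
miR-26a-5p: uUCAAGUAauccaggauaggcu
miR-26b-5p: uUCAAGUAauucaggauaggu
Both carry the seed UCAAGUA, which pairs with UACUUGA in a target, and of 693 distinct mature names in the RefSeq table only these 2 have it. Over the 21 positions they can be compared at, 19 are the same. The differences are C11U and C21U, with the base of miR-26a-5p first and positions counted from 1 at the 5′ end, and miR-26a-5p is 1 base longer. How reads that fit both were assigned is not given in the sources used here, so the split between the members is uncertain.

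The hairpins are shown because they place the abundant 5p arm and the scarce 3p arm on the same precursor. Capitals mark both mature arms, the 5p arm first.
Mir26a hairpin: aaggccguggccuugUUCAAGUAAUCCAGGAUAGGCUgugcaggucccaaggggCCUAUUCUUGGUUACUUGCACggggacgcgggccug
Mir26b hairpin: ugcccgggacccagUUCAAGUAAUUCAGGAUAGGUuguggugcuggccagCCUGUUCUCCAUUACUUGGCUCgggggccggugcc
In GRCr8, Mir26a lies on the plus strand at chr8:127633048-127633137, within the span of Ctdspl, and Mir26b on the plus strand at chr9:83425709-83425793, within the span of Ctdsp1. No other miRNA hairpin of the table lies within 10 kb of either. Exon positions were not used here, so intron or exon is not stated.

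In the deposited unit, RPM, which scales each miRNA's reads to a library total (here 11001459 to 12153889 reads), miR-26a-5p was among the most abundant miRNAs of the normal cornea. It stood at 15845, 17496 and 17509 RPM in normal 12, 34 and 56, and was the fifth most abundant miRNA (rank 5) in each. These values rest on 174511 to 192737 reads, so counting error is small, with a 95% exact binomial interval of 15772 to 15919 RPM for normal 12. Such intervals and floors cover counting error only: without molecular identifiers, reads are not independent molecules. miR-26b-5p stood at 1614, 1877 and 1826 RPM in the same libraries, at ranks 29 to 31.

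In isografts miR-26a-5p was at 9255, 17190 and 15672 RPM in libraries 12, 34 and 56. Isograft 12 was low and the other 2 lay among or just below the normal values, so the groups overlapped. miR-26b-5p was at 891, 1586 and 1703 RPM, with isograft 12 low again. In allografts miR-26a-5p was at 8467, 7999 and 14780 RPM and miR-26b-5p at 1094, 1084 and 1770 RPM. Allografts 12 and 34 were low for both members, while allograft 56 reached 14780 RPM for miR-26a-5p, short of every normal library, and 1770 RPM for miR-26b-5p, within the normal range.

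**Figure D1:**
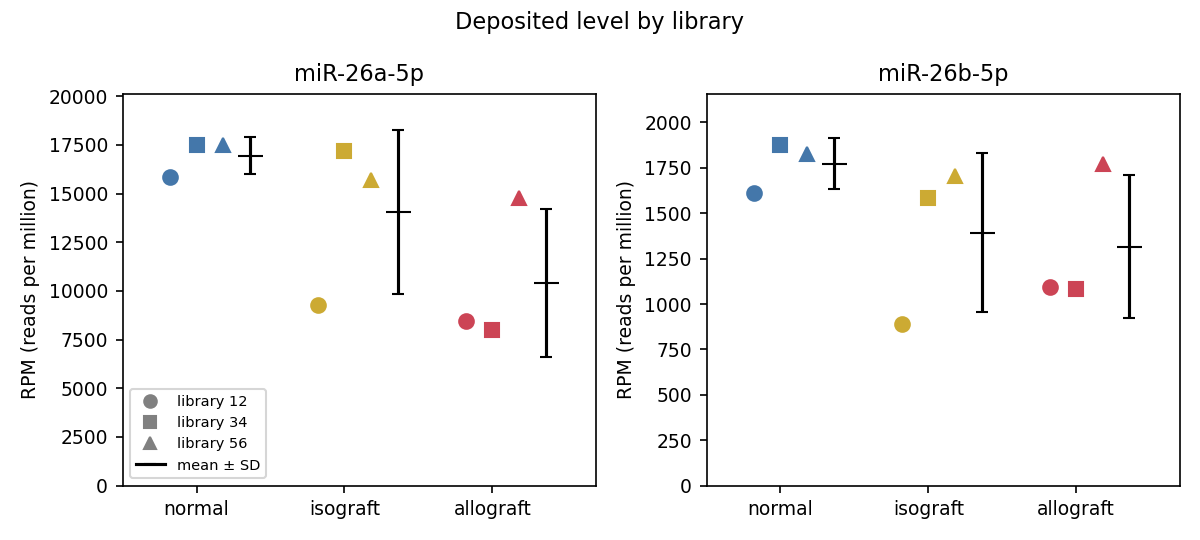
Deposited RPM (y axis) of miR-26a-5p and miR-26b-5p in each library by group (x axis), with the library number as the symbol and the group mean ± SD (n = 3) in black. Isograft 12 and allografts 12 and 34 lie at 7999 to 9255 RPM for miR-26a-5p, and the other 6 libraries at 14780 to 17509.

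Isografts were compared with normal corneas to ask whether the family differed between them. On the RPM scale neither member passed the test. In bulk samples like these, fewer cells of a type and less RNA per cell cannot be told apart. miR-26a-5p averaged 16950 RPM ± 957 in normal corneas and 14039 ± 4212 in isografts (SD, n = 3 each), a log2 fold change on the log2(RPM + 1) scale of -0.32 (SE 0.33, 95% interval -0.999 to 0.36, limma adjusted p = 0.62). miR-26b-5p averaged 1772 RPM ± 140 and 1393 ± 439, a log2 fold change of -0.40 (SE 0.35, 95% interval -1.11 to 0.32, adjusted p = 0.541). Of all 281 miRNAs tested, 60 passed in this comparison (21.4%), 13 of them lower (4.63%) and 47 higher (16.7%). Of the members, 0 of 2 passed and 0 had an unadjusted p under 0.05, while edgeR and DESeq2 on whole reads recovered from the RPM steps called both lower (16.7% of miRNAs with edgeR and 18.3% with DESeq2 were called lower). In RPM, 0 of 2 members had no overlap between the groups, against 33.5% of miRNAs tested (11.0% lower). The values rested on isograft 12: without it the log2 fold changes were -0.04 for miR-26a-5p and -0.11 for miR-26b-5p.

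Allografts were compared with normal corneas to ask the same of the grafts labelled allograft. miR-26a-5p averaged 10415 RPM ± 3787 in allografts, with all 3 below all 3 normal libraries. Its log2 fold change was -0.76 (SE 0.33, 95% interval -1.44 to -0.08), with an unadjusted p of 0.0296 and a limma adjusted p of 0.0601 that missed the threshold of 0.05. Of the miRNAs tested, 47.3% passed in this comparison (24.2% lower and 23.1% higher), and 60.1% had no overlap between the groups (30.2% lower), so the separation of miR-26a-5p is of a kind that many miRNAs showed. It passed when isograft 12 was left out of the shared estimate of spread (adjusted p = 0.0292) and when allograft 56 was left out (log2 fold change -1.04, adjusted p = 0.00744). Over 24 alternatives its adjusted p ran from 9.1e-05 to 0.836. miR-26b-5p averaged 1316 RPM ± 393, a log2 fold change of -0.47 (SE 0.35, 95% interval -1.18 to 0.25, adjusted p = 0.287), with overlapping groups, and -0.70 without allograft 56. edgeR called both members lower (31.3% of miRNAs were), and DESeq2 called miR-26a-5p lower (33.0% were) but left miR-26b-5p just short of the threshold (adjusted p = 0.0503).

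Allografts were compared with isografts to ask what differed between the 2 kinds of graft. Donor strain, time after surgery and graft state are not given, so a part of the donor cannot be told apart. Here too 0 of 2 members passed on the RPM scale, where 34.5% of the miRNAs tested did (21.0% lower and 13.5% higher), and 0 of 2 had an unadjusted p under 0.05. The log2 fold change was -0.44 for miR-26a-5p (SE 0.33, 95% interval -1.12 to 0.24, limma adjusted p = 0.32) and -0.07 for miR-26b-5p (SE 0.35, 95% interval -0.78 to 0.65, adjusted p = 0.905). edgeR and DESeq2 called neither, with 29.9% and 33.0% of miRNAs called lower. The groups overlapped for both members, where 38.8% of miRNAs tested had none (22.4% lower), with isograft 12 below allograft 56. For miR-26a-5p the value was -0.72 without allograft 56, -0.71 without isograft 12, -0.28 without allograft 34 and -0.27 without isograft 34. For miR-26b-5p it was -0.36 without isograft 12 and -0.30 without allograft 56, and positive, up to 0.11, without any 1 of the other 4 grafts.

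The low libraries for the family were those with the least miRNA. The listed miRNAs made up 26.4% of the reads in allograft 34, 33.9% in allograft 12 and 36.8% in isograft 12, and 46.3% to 65.6% in the other 6. What the remaining reads are is not stated. Within groups the SD of miR-26a-5p was 0.40 on the log2 scale in RPM, near the median of 0.45 over all miRNAs tested. After scaling by the median of ratios, which sets each library by its typical miRNA, that SD was 0.08, against a median of 0.25, and 5 of 281 miRNAs varied less. For miR-26b-5p it went from 0.38 to 0.10, with 13 varying less. The 281 include far scarcer miRNAs, and the SD was not compared with that of miRNAs of like level. Within groups the family thus moved with the bulk of the other miRNAs of each library.

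**Figure D2:**
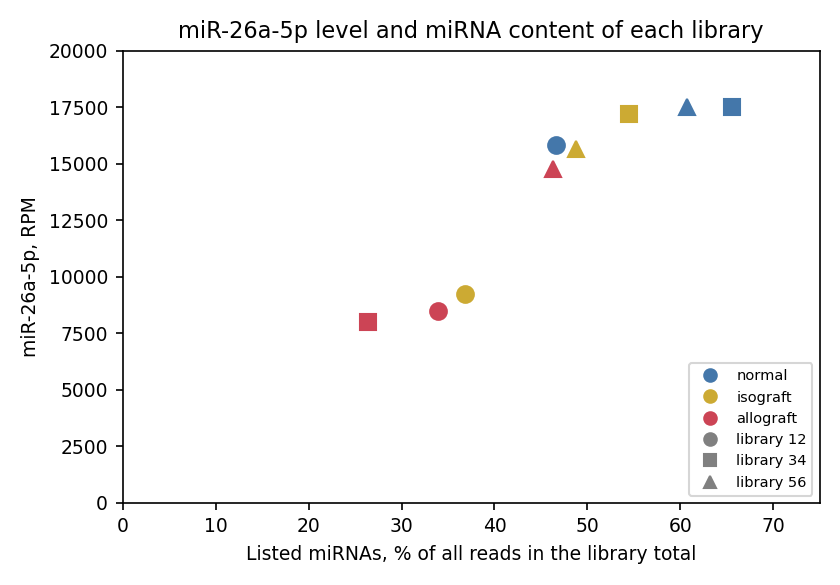
RPM of miR-26a-5p (y axis) against the percentage of each library's reads that the listed miRNAs hold (x axis), 1 point per library, coloured by group. The 3 libraries with 26.4% to 36.8% miRNA reads have 7999 to 9255 RPM, and the 6 with 46.3% or more have 14780 to 17509.

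As a share of all listed miRNAs, miR-26a-5p was level across the groups. It held 3.40%, 2.67% and 2.88% in normal 12, 34 and 56, 2.51%, 3.15% and 3.21% in isografts 12, 34 and 56 and 2.49%, 3.03% and 3.19% in allografts 12, 34 and 56. The groups overlapped fully, and the log2 fold changes after this scaling were -0.01 in isografts and -0.04 in allografts against normal corneas (95% intervals -0.37 to 0.34 and -0.40 to 0.32). That total is moved by miR-184, the dominant miRNA of the corneal epithelium, whose part of all reads was 21.4% to 33.98% in the normal group, with isografts at 13.2% to 14.4% and allografts at 2.48% to 5.45%.

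Among the listed miRNAs other than miR-184, miR-26a-5p took 6.29%, 5.54% and 5.93% in normal 12, 34 and 56. It took 3.97%, 4.28% and 4.40% in isografts 12, 34 and 56, and 2.88%, 3.34% and 3.62% in allografts 12, 34 and 56. The 3 groups did not overlap, with normal corneas highest and allografts lowest. On this scale the log2 fold change was -0.49 in isografts (95% interval -0.77 to -0.21, limma adjusted p = 0.0111) and -0.86 in allografts (-1.14 to -0.58, adjusted p = 0.000174) against normal corneas, and -0.37 in allografts against isografts (-0.65 to -0.09, adjusted p = 0.0288). Lower calls on this scale made up 19.6%, 39.9% and 36.7% of the miRNAs tested in these 3 comparisons, and lower values without overlap 28.5%, 42.0% and 39.5%.

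miR-26b-5p took 0.641%, 0.594% and 0.618% of the listed miRNAs other than miR-184 in normal 12, 34 and 56, 0.382%, 0.395% and 0.478% in isografts 12, 34 and 56, and 0.372%, 0.452% and 0.433% in allografts 12, 34 and 56. Both kinds of graft lay below every normal library and overlapped each other. Its log2 fold change was -0.57 in isografts (95% interval -0.86 to -0.27, limma adjusted p = 0.0065) and -0.56 in allografts (-0.86 to -0.27, adjusted p = 0.00345) against normal corneas, and 0.01 between the grafts (-0.29 to 0.30, adjusted p = 0.974).

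**Figure D3:**
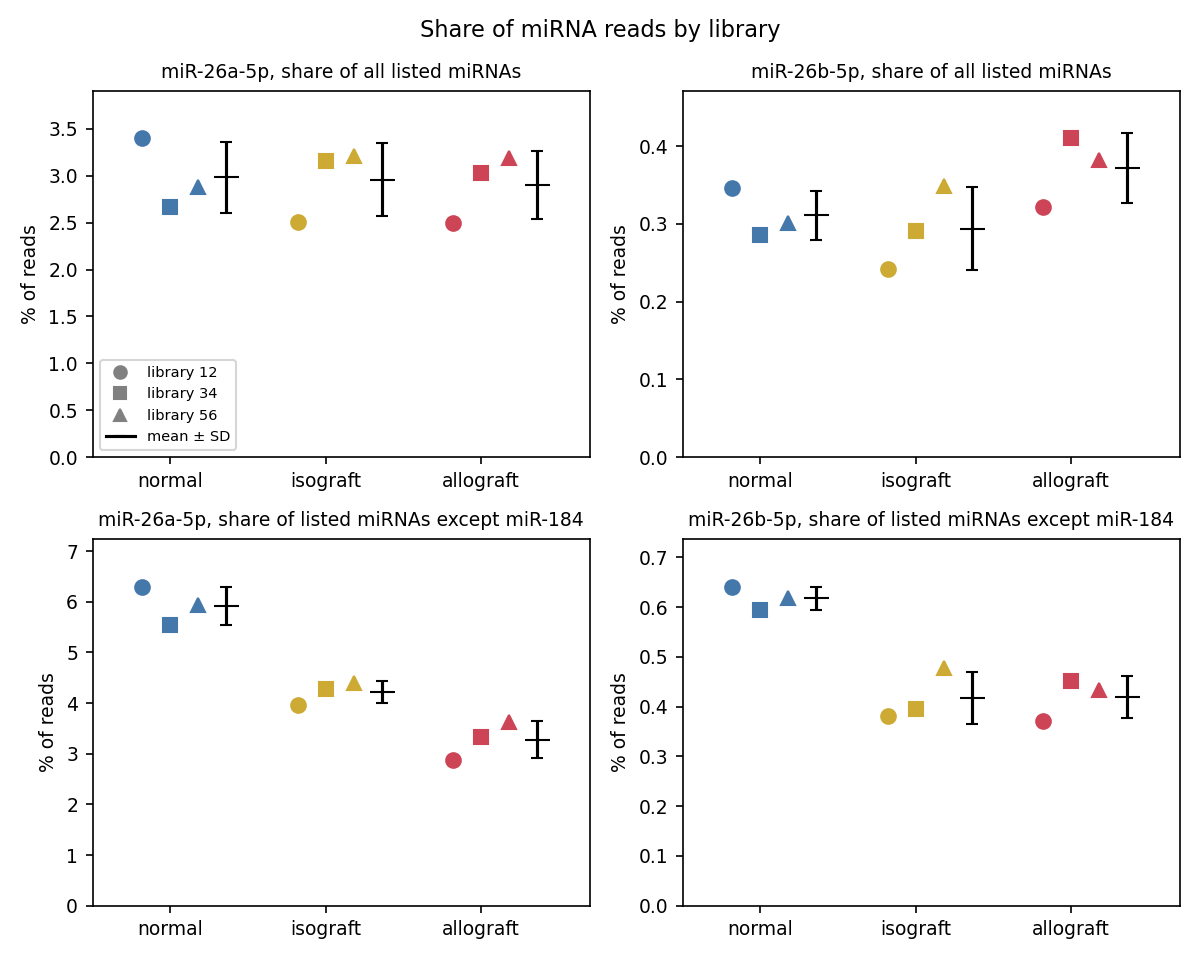
Percentage of miRNA reads (y axis) held by each member per library and group (x axis), over all listed miRNAs (top) and over those except miR-184 (bottom), with mean ± SD (n = 3). miR-26a-5p is level in the top panel (means 2.98%, 2.96% and 2.90%) and steps down in the bottom panel (5.92%, 4.21% and 3.28%), while miR-26b-5p stops at 0.418% and 0.419% in the grafts.

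Scaling by the median of ratios gave calls of the same direction for both members in both kinds of graft against normal corneas. miR-26a-5p had log2 fold changes of -0.41 (adjusted p = 0.0173) in isografts and -0.64 (adjusted p = 0.000787) in allografts, and miR-26b-5p of -0.49 (adjusted p = 0.00787) and -0.34 (adjusted p = 0.0266), by limma. Of all miRNAs tested, 16.7% in isografts and 32.7% in allografts were called lower on this scale. Between the grafts neither member passed, where 31.7% were called lower. With miR-184 alone taken out of the total, both members passed in allografts against normal corneas, at -1.19 (adjusted p = 0.00407) for miR-26a-5p and -0.90 (adjusted p = 0.0445) for miR-26b-5p, where 37.4% were called lower. Neither passed on that scale in the other comparisons, where 8.54% (isografts against normal corneas) and 26.3% (between grafts) were called lower. The direction for miR-26a-5p was negative under each of the 5 scalings in all 3 comparisons, though near 0 when all listed miRNAs set the scale. miR-26b-5p in allografts was above normal corneas under that scaling (0.25, not past the threshold) and below them under the other 4. These scalings move the median of all miRNAs: in allografts against normal corneas it was -0.14 in RPM, -0.02 by the median of ratios, 0.55 over all listed miRNAs and -0.24 over those except miR-184.

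**Figure D4:**
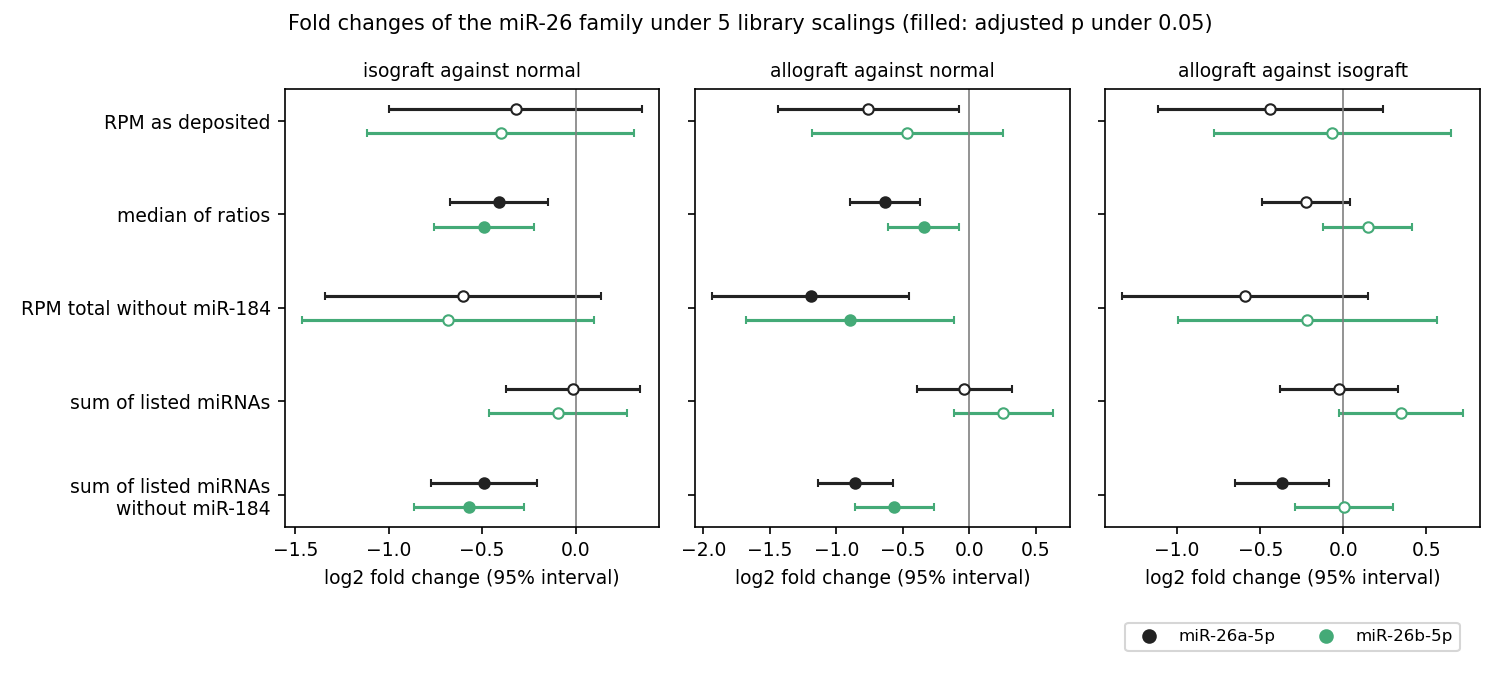
Log2 fold changes (x axis) with 95% intervals for miR-26a-5p (black) and miR-26b-5p (green) in the 3 comparisons under 5 ways of scaling the libraries (y axis), filled where the limma adjusted p is under 0.05. The RPM intervals are wide (-1.44 to -0.08 for miR-26a-5p in allografts against normal corneas) and those by the median of ratios narrower (-0.90 to -0.37).

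The members parted in allografts. A ratio within a library does not depend on its total, and miR-26a-5p had 9.82, 9.32 and 9.59 reads per read of miR-26b-5p in normal 12, 34 and 56, and 10.4, 10.8 and 9.20 in isografts 12, 34 and 56. In allografts 12, 34 and 56 the ratio was 7.74, 7.38 and 8.35, below all 6 other libraries. How many other pairs of miRNAs have ratios that part the allografts in this way was not counted. The group means were 9.58 ± 0.250, 10.1 ± 0.845 and 7.82 ± 0.491 (SD, n = 3), and the log2 ratio differed over the 3 groups (exact permutation test over 1680 arrangements, two-sided p = 0.0143, where the smallest possible is 0.00357). The difference was -0.29 on the log2 scale for allografts against normal corneas, -0.37 against isografts, and 0.08 for isografts against normal corneas. A test of 3 libraries against 3 cannot go below 0.1, so the pairs were not tested singly.

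Put as a share of family reads, miR-26b-5p held 9.24% to 9.69% in the normal group, with isografts at 8.45% to 9.80% and allografts at 10.7% to 11.9%. The counting intervals are narrow beside these gaps: 10.6 to 10.8% in allograft 56, the lowest allograft (95% exact binomial), and 9.67 to 9.94% in isograft 56, the highest of the other 6. The part that reads assigned to the wrong member play in this shift was not tested.

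**Figure D5:**
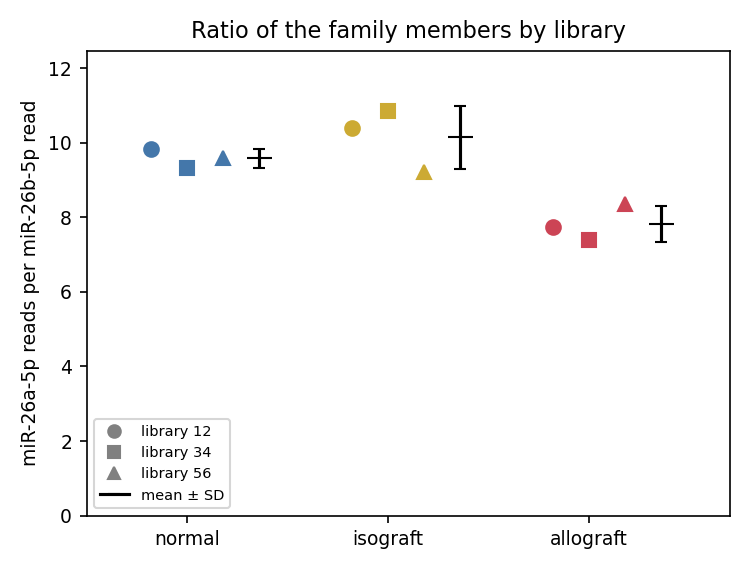
Reads of miR-26a-5p per read of miR-26b-5p (y axis) in each library by group (x axis), with mean ± SD (n = 3) in black. The 3 allografts lie between 7.38 and 8.35, under the 6 other libraries at 9.20 to 10.8.

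The 3p arms, which lie opposite the guide arms in the hairpins and are mostly discarded, were scarce. miR-26a-3p had 7, 6 and 9 reads in normal 12, 34 and 56, 3, 7 and 7 in isografts and 4, 2 and 9 in allografts, against a floor of 3 reads (0.247 to 0.273 RPM). These counts cannot show a difference. miR-26b-3p stood at 4.18, 4.27 and 4.27 RPM in normal 12, 34 and 56, at 1.07, 3.55 and 2.91 RPM in isografts and at 1.999, 2.36 and 3.73 RPM in allografts. All normal values exceeded all graft values, but on few reads: 46 in normal 12 against 39 in isograft 34 and 41 in allograft 56. The exact binomial intervals of these libraries overlapped, at 3.06 to 5.57, 2.52 to 4.85 and 2.67 to 5.05 RPM. Only isograft 12 (0.570 to 1.83) and allograft 12 (1.25 to 3.03) had intervals below every normal one. Counting error thus leaves the full separation unsure. Of the tested miRNAs, 11.0% in isografts and 30.2% in allografts were lower without overlap. Both 3p arms fell under the filter and were not tested, so these shares come from other, less scarce miRNAs. miR-26b-5p had 386 to 833 reads per read of its 3p arm.

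The family was set beside miRNAs with which it shares a regulator or a target. Of 20 other miRNAs known to be repressed by Myc, 5 rose and 1 fell in allografts against normal corneas (limma), with a median log2 fold change of -0.17 against -0.14 over all miRNAs tested. The share that rose is near the 23.1% of all miRNAs called higher. The counts moved with the scaling, as did those among the 281 miRNAs tested. By the median of ratios 6 rose and 2 fell (105 and 92 of the 281). Without miR-184 in the total 3 rose and 4 fell (51 and 105 of the 281). Over all listed miRNAs the counts were 12 and 1 (141 and 44 of the 281), and over those except miR-184 5 and 5 (81 and 112). The rises were led by miR-150-5p at 5.23 (SE 0.39), a lymphocyte miRNA, and miR-146a-5p at 3.88 (SE 0.36), which NF-kB induces, and the fall was that of miR-30c-5p at -1.29 (SE 0.36). miR-30b-5p, at -0.04 (SE 0.41), was the nearest to 0 of the 20. In isografts against normal corneas 2 of the 20 rose, miR-146a-5p at 2.09 (SE 0.36) and miR-150-5p at 1.34 (SE 0.39). Of all miRNAs tested, 16.7% were called higher there. In allografts against isografts 4 of the 20 rose, where 13.5% of all were called higher. Under the other 4 scalings 1 to 6 rose and 0 to 6 fell in isografts against normal corneas (38 to 106 and 14 to 55 of the 281). Between grafts 3 to 11 rose and 0 to 3 fell under them (33 to 85 and 55 to 103 of the 281). The RPM medians in these 2 comparisons were -0.04 and 0.12, against 0.05 and -0.29 over all.

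Of the 6 miRNAs of the miR-17-92 cluster, which Myc induces, 4 rose in allografts against normal corneas, where 23.1% of all miRNAs tested were called higher, with a median of 1.20, with miR-18a-5p up by 2.73 (SE 0.35), followed by miR-19a-3p with 1.95 (SE 0.39). Without miR-184 in the total 2 of 6 rose (51 of all 281 miRNAs tested were called higher). Under the other 3 scalings 5 or 6 rose (81 to 141 of the 281). In allografts against isografts 3 of 6 rose, where 13.5% were called higher, with a median of 1.12. In isografts against normal corneas the median was 0.08 and 0 of 6 passed by limma, edgeR or DESeq2, with 0 at an unadjusted p under 0.05.

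Of the other miRNAs known to lower Ezh2, 6 could be tested. In allografts against normal corneas miR-101b-3p rose by 1.46 (SE 0.37) and miR-214-3p by 1.19 (SE 0.41), and a value of -1.78 (SE 0.36) put miR-138-5p among the miRNAs called lower. Of all miRNAs tested, 23.1% were called higher and 24.2% lower there. miR-101a-3p was at 0.36 (SE 0.38), and the median over the 6 was 0.38. In isografts miR-214-3p, a stromal miRNA, rose by 2.19 (SE 0.41), while miR-138-5p was lower at -1.76 (SE 0.36), with a median of 0.36. There 16.7% of all miRNAs were called higher and 4.63% lower. In allografts against isografts 0 of 6 passed with limma, where 34.5% of all miRNAs did, and 1 had an unadjusted p under 0.05. edgeR and DESeq2 each called 1 of the 6 higher and 2 lower. Over all miRNAs each called 79 higher, and 29.9% (edgeR) and 33.0% (DESeq2) were called lower. The median was -0.01.

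let-7 and miR-30 are abundant families that, like miR-26, are found in most differentiated tissues. miR-26a-5p stood at 0.318, 0.293 and 0.307 of the summed let-7 RPM in normal 12, 34 and 56, at 0.148, 0.225 and 0.258 in isografts and at 0.178, 0.217 and 0.264 in allografts, so every graft lay below every normal cornea. Of all miRNAs tested, 27.4% in isografts and 30.2% in allografts lay below normal corneas without overlap on this ratio. The let-7 sum was itself higher in every isograft (60677 to 76409 RPM) than in every normal cornea (49751 to 59717), while miR-26a-5p overlapped there in RPM. miR-26b-5p stood at 0.0314 to 0.0324 of let-7 in the normal group, with isografts at 0.0143 to 0.0281 and allografts at 0.0230 to 0.0316, so that the isografts lay below the normal corneas and the allografts overlapped them. Against the summed miR-30 family miR-26a-5p stood at 1.07 to 1.22 in the normal group, with isografts at 1.13 to 1.26 and allografts at 0.838 to 1.04, where the allografts lay apart from both other groups, as did 24.9% of miRNAs tested below normal corneas and 38.4% below isografts. miR-26b-5p overlapped in all groups on that ratio, at 0.115 to 0.124, 0.108 to 0.137 and 0.108 to 0.141. None of these 4 ratios was tested.

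By limma on RPM, in allografts against normal corneas 2 of 9 let-7 miRNAs fell, let-7c-5p by 1.01 (SE 0.33) and let-7b-5p by 0.94 (SE 0.35), and 1 of 5 miR-30 miRNAs, miR-30c-5p. Both counts are near the 24.2% of all miRNAs called lower. In isografts against normal corneas 0 of 9 and 0 of 5 passed, with 0 at an unadjusted p under 0.05, where 21.4% of all miRNAs passed. edgeR called 0 of the let-7 and 4 of the miR-30 miRNAs lower there (16.7% of all miRNAs were). DESeq2 called 0 and 3 lower (18.3% of all were). The counts moved with the scaling. By limma over all listed miRNAs, 9 of 9 let-7 miRNAs were called higher (106 of the 281) and 0 miR-30 miRNAs passed. Over those except miR-184, 0 let-7 miRNAs passed and 5 of 5 miR-30 miRNAs were called lower (55 of the 281). By the median of ratios 0 let-7 and 3 miR-30 miRNAs were called lower (47 of the 281). Without miR-184 in the total 0 and 1 were (24 of the 281). In RPM the medians were 0.29 for let-7 and -0.65 for miR-30, with miR-26a-5p between them at -0.32. The sign of the medians in allografts against normal corneas depended on the scaling. Scaled to all listed miRNAs, they were 0.46 for let-7, 0.41 for miR-30, 0.55 for the Myc-repressed and 1.10 for the Ezh2-lowering miRNAs. Without miR-184 in the total, they were -0.69, -0.74, -0.60 and -0.05.

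The miRNAs nearest in mean RPM over the 9 libraries were let-7f-5p (15870) above and miR-205 (13627) below miR-26a-5p (13801), and miR-29a-3p (1526) above and miR-127-3p (1373) below miR-26b-5p (1494). let-7f-5p, of similar mean level to miR-26a-5p, stood at 15800 ± 1264, 18461 ± 2786 and 13349 ± 2301 RPM in normal corneas, isografts and allografts (SD, n = 3). miR-205, an epithelial miRNA, stood at 23382 ± 2469, 11158 ± 4721 and 6342 ± 4175 RPM, so it exceeded miR-26a-5p in normal corneas and had lower means than it in both kinds of graft.

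Over the 9 libraries, the pattern of miR-26a-5p in log2(RPM + 1) was most like those of miR-31a-5p (Pearson r = 0.98), miR-1843a-5p (0.98), miR-96-5p (0.97), miR-429 (0.97) and miR-125b-5p (0.97) among 139 other miRNAs with a mean of at least 50 RPM. The median r over these miRNAs was 0.61, and all points share the library totals. miR-26b-5p was most like miR-194-5p (0.97), miR-181a-5p (0.97), miR-195-5p (0.93), let-7c-2-3p (0.93) and let-7a-1-3p (0.93), the last 2 of which have the same mean RPM and the same fitted values. The members had an r of 0.92 with each other. After scaling by the median of ratios, a view added after seeing the data, the 5 nearest to miR-26a-5p were miR-96-5p (0.97), miR-205 (0.96), miR-200c-3p (0.96), miR-204-5p (0.95) and miR-200a-3p (0.94), of which miR-205 and the miR-200 miRNAs mark epithelium, with a median r of 0.03 over all. For miR-26b-5p the highest on that scale were miR-194-5p (0.84) and miR-181a-5p (0.80). The members had an r of 0.76 with each other on it, at place 30 for miR-26a-5p and place 3 for miR-26b-5p. These values are descriptions.

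Summed RPM of marker miRNAs parted normal from grafted corneas for each list except that of red cells. Fewer cells of a type and less RNA per cell cannot be told apart from these sums. The summed level of 8 epithelial marker miRNAs, miR-184 among them, was 271148 to 420587 RPM in the normal group, with isografts at 159213 to 193990 and allografts at 37254 to 90969. Most of the epithelial sum in normal corneas was miR-184, at a mean of 288696 RPM. The sum of 5 leukocyte markers was 46.0 to 56.7, 156 to 327 and 2293 to 3997 RPM, and that of 7 stromal markers 8192 to 10206, 17134 to 36103 and 11397 to 21574 RPM. The sum of 2 endothelial markers was 346 to 857, 2095 to 6150 and 2955 to 4874 RPM. The sum of miR-204-5p and miR-211-5p, taken as markers of pigment epithelium and lens, was 4859 to 6715, 1935 to 3595 and 663 to 1940 RPM. Nearly all of it was miR-204-5p, with a normal mean of 6007 RPM against 27.5 for miR-211-5p. Whether these 2 miRNAs mark those tissues in a cornea sample was not tested. The sum of 4 muscle markers was 49.6 to 57.4, 15.1 to 40.6 and 14.0 to 29.6 RPM. The sum of 3 red cell markers overlapped over the groups, with allograft 34 apart at 1067 RPM and the other 8 libraries at 13.6 to 343. No marker of these lists was at 0 in every library. The part of these shifts in the values of the miR-26 family was not tested.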

How the data were processed

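The authors deposited 1 table of mature miRNA levels in RPM. Small RNA libraries were made from Trizol-extracted RNA with a TruSeq kit, per the labels' protocols. bcl2fastq, BWA and the rn6 build are named in the submitters' processing notes. Their versions, the trimming, the miRNA annotation, the handling of multi-mapping reads and the reads in the RPM total are things the sources used here do not give. Whole reads were recovered from the RPM steps (100% whole within 0.1 reads), giving totals of 11001459 to 12153889. miRNAs with at least 5 RPM in 3 libraries were kept (281 of 765). log2(RPM + 1) was fitted with limma 3.58.1 (R 4.3.3) over all 9 libraries, with 6 residual degrees of freedom, no block, and Benjamini-Hochberg adjustment over all 281 at 0.05. edgeR 4.0.16 and DESeq2 1.42.0 on recovered reads, 4 other scalings, other pseudocounts (0.5 and 5 RPM), filters (none and 50 RPM), limma settings and leaving out libraries were alternatives. The ratio was tested by exact permutation. The fits were tested on simulated data. The members and lists were chosen with earlier results of these data known. Named miRNAs are the members, their 3p arms, up to 4 per list and comparison (those past the threshold with the largest change and the one nearest 0), the 5 most alike in pattern and the neighbours in mean RPM. Sequences are from RefSeq (GRCr8), where 690 of 765 names matched.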

Additional observations from a re-analysis of the deposited data

How the results depend on the processing

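Whether the members passed depended on the scaling, and for miR-26a-5p in allografts against normal corneas also on the libraries kept. For miR-26a-5p in isografts against normal corneas the log2 fold change passed at -0.41 by the median of ratios, -0.49 over listed miRNAs except miR-184, -0.42 with edgeR and -0.41 with DESeq2. In allografts against normal corneas it passed at -0.64, -0.86, -0.62 and -0.63 by these 4, and at -1.19 without miR-184 in the total. In RPM it passed there at -0.76 without isograft 12 and at -1.04 without allograft 56. In allografts against isografts it passed at -0.37 over listed miRNAs except miR-184, and under no other alternative run. miR-26b-5p passed in isografts against normal corneas at -0.49, -0.57, -0.49 and -0.49 by the same 4. In allografts against normal corneas it passed at -0.34 by the median of ratios, -0.90 without miR-184, -0.56 over listed miRNAs except miR-184 and -0.33 with edgeR, and turned to 0.25 over all listed miRNAs. Between grafts miR-26b-5p turned positive by the median of ratios (0.15), over all listed miRNAs (0.35), over those except miR-184 (0.00563), with edgeR (0.16) and with DESeq2 (0.15), never past the threshold.

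Leaving out each library in turn gave, for miR-26a-5p, -0.49 to -0.04 in isografts and -1.04 to -0.60 in allografts against normal corneas, and -0.72 to -0.27 between grafts. miR-26b-5p gave -0.57 to -0.11, -0.70 to -0.35 and -0.36 to 0.11, turning positive between grafts without isograft 34 (0.06), isograft 56 (0.11), allograft 12 (0.05) or allograft 34 (0.05). The permutation p of the ratio ran from 0.00357 to 0.0321. The miRNAs called between grafts ran from 52 (without allograft 34) to 147 (without isograft 12), beside 97 with all libraries.

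The 60 miRNAs called in isografts against normal corneas became 30 with a 50 RPM filter, where fewer were tested, 114 by the median of ratios and with edgeR, 120 over all listed miRNAs, and 119 over those except miR-184 and with DESeq2. The 133 in allografts became 63 with that filter. The 97 between grafts became 44 with it, 169 by the median of ratios, 168 over listed miRNAs except miR-184, 163 with edgeR and 171 with DESeq2. Of the calls in isografts, 78.3% were higher in RPM, 58.8% by the median of ratios, 61.3% without miR-184, 88.3% over all listed miRNAs and 53.8% over those except miR-184. In allografts 48.9% were higher in RPM, 32.7% without miR-184 and 76.2% over all listed miRNAs, and between grafts 39.2% in RPM and 60.7% over all listed miRNAs. The causes were not tested.

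The title numbers are shared by the groups, but 2 of 9 same-number pairs had deviations correlated above 0.1 and 2 of 9 libraries were most like their own number, so they were not taken as pairs. With the number as a replicate block the calls were 66, 143 and 112, the members stayed short of the threshold, and an exact permutation of the ratio within numbers gave p = 0.0556, where the smallest possible is 0.0278.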
